A study of Mus musculus with 6 samples.

Results

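The genes described here make and regulate sterols and fatty acids under the control of the sterol regulatory element binding proteins (SREBPs). They are 32 genes chosen by symbol, with earlier results of these data known. The set holds 17 enzymes of sterol synthesis, 9 enzymes of fatty acid synthesis, and 6 genes for the regulators and a sterol carrier. Each symbol matched 1 of the 23850 gene entries in every deposited table, and all 32 were among the 10096 genes tested. The cells were wild type C57BL/6J mouse germinal center B cells generated in vitro, whose messenger RNA was sequenced. Naive follicular B cells were grown on CD40L feeder cells for 4 days in IL-4 (1 ng/ml). Both groups then spent 36 h in IL-21 (10 ng/ml), again over CD40L feeder cells. The 3 libraries of one group received the solvent DMSO, beside which the labels print 3 uM, and the 3 of the other the GSK3 inhibitor CHIR99021 at 3 uM. The series calls them biological triplicates and asks how expression profiles differ between the groups. The cells are a culture model made with CD40L and cytokines, and the labels do not name the source of the feeder cells.

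Sterol synthesis starts from acetyl-CoA and runs through mevalonate, farnesyl diphosphate and squalene to cholesterol. Fatty acid synthesis uses the same acetyl-CoA, which is built into palmitate and then elongated and desaturated. SREBP2 mainly drives the sterol genes and SREBP1 mainly the fatty acid genes. Both are held in the endoplasmic reticulum by INSIG proteins when sterols are plentiful. When sterols are low, the escort protein SCAP carries them to the Golgi, where they are cut and released to enter the nucleus. Dividing lymphocytes use these pathways to build membranes, and GSK3 is known as a kinase that marks nuclear SREBP for degradation.

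Levels are FPKM, fragments scaled for transcript length and library total, so levels of different genes can be set side by side. Changes are CHIR99021 against DMSO on the log2(FPKM + 1) scale, with a standard error (SE). Each p was adjusted over the 10096 genes that limma tested, with a threshold of 0.05. In that test 13.3% of all genes were called lower with CHIR99021 and 8.13% higher. Replicate numbers 1 to 3 are shared by both groups, and libraries of the same number deviated together. Where a fit with the replicate number as a block changes a call, its adjusted p stands beside the first. In the blocked fit 24.4% of all genes were called lower and 18.4% higher. Because the genes were chosen with earlier results known, class shares set beside these backgrounds are descriptions and not independent support. Where genes at an unadjusted p under 0.05 are counted, the share of all genes at that threshold was not counted.

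Defining B cell genes were high in every library, and all 6 markers on that list fell with CHIR99021. Their summed level was 2579 to 3433 FPKM in DMSO and 1281 to 1522 in CHIR99021. The 6 germinal centre markers summed to 129 to 135 and 116 to 125 FPKM, and of these only Fas fell, with Bcl6 also lower and Gcsam higher in the blocked fit. Of 5 plasma cell markers, Prdm1 and Irf4 rose, with Xbp1 also higher and Jchain lower in the blocked fit, and the list summed to 489 to 766 and 471 to 588 FPKM. The 6 T cell markers summed to at most 1.54 FPKM in any library, with Cd3e and Cd8b1 listed at 0 throughout, and the 6 myeloid markers to at most 5.02, with Cd14 listed at 0. The 6 fibroblast markers, which feeder cells could supply, summed to 296, 102 and 54.5 FPKM in DMSO replicates 1, 2 and 3 and to 231, 87.1 and 47.4 in CHIR99021 replicates 1, 2 and 3. The fibroblast markers followed the replicate number, and within each number their sum was higher in DMSO. Of the 4 that were tested limma called 0, also at an unadjusted p under 0.05, and 3 lower with the block. Their part in the results was not tested. In bulk RNA, fewer cells of a type and less RNA per cell cannot be told apart.

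Sequences before the annotated starts are shown first because most of the sterol genes and most of the regulator genes share a short box there. Windows from 250 bases before to 50 after each start were taken from RefSeq (build GRCm38.p6), which had 33 windows for 25 of the 32 genes. Fdps, Fdft1, Sqle, Stard4, Scd1, Scd2 and Fads1 had no entry. The windows were searched on both strands for TCACNCCAC, a core of the sterol regulatory element, for CCAAT, the box of the SREBP partner NF-Y, and for GGGCGG, the box of Sp1. None of the 3 is contained in another. The stretches below end at the base before the start, read 5′ to 3′ along the gene, and carry TCACNCCAC and CCAAT matches in capitals (CCAAT reads ATTGG when it lies on the other strand). The stretches are a selection. The first 6 are sterol genes, of which Lss was not called by the test without the block. All 6 carry CCAAT, and Acat2, the sterol gene with a window but no CCAAT match, is not shown. Fasn and Fads2 are fatty acid genes and Scap is the escort protein gene.
Hmgcs1, chr13:119690151-119690350, plus strand: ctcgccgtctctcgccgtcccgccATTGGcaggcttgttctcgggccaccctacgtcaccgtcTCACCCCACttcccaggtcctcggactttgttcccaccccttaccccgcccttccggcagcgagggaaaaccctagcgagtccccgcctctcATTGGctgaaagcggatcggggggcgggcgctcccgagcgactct
Mvk, chr5:114444069-114444268, plus strand: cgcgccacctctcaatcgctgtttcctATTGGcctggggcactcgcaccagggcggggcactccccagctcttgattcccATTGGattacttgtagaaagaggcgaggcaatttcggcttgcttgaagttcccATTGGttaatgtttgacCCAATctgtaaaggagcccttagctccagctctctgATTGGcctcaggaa
Mvd, chr8:122443423-122443522, minus strand: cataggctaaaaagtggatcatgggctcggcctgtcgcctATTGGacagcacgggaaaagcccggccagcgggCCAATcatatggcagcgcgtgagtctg
Tm7sf2, chr19:6067851-6067950, minus strand: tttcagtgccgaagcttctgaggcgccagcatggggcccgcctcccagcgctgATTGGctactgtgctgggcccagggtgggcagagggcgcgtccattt
Sc5d, chr9:42264301-42264400, minus strand: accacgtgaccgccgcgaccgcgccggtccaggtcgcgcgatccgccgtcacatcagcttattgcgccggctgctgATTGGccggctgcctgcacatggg
Lss, chr10:76531505-76531604, plus strand: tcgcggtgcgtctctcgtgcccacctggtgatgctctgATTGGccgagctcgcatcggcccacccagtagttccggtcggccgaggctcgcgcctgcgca
Fasn, chr11:120824548-120824647, minus strand: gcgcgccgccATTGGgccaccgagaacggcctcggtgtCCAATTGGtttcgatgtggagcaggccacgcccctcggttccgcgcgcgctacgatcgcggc
Fads2, chr19:10101504-10101603, minus strand: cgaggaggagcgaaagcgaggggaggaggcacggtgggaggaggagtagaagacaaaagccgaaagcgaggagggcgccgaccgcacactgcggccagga
Scap, chr9:110333188-110333287, plus strand: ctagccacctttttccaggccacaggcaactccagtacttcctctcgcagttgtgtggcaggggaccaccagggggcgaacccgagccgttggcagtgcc

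CCAAT was found in 13 of 17 windows of sterol genes (76.5%), 3 of 6 of fatty acid genes and 5 of 10 of regulator genes, and in 37.4% of all 32851 windows. Counted by gene, where any window of a gene counts, it was found in 13 of 14 sterol, 3 of 6 fatty acid and 4 of 5 regulator genes. GGGCGG was found in 14 of 17 sterol windows (82.4%), 2 of 6 fatty acid windows and 8 of 10 regulator windows, and in 35.7% of all windows. By gene it was found in 13 of 14 sterol, 2 of 6 fatty acid and 5 of 5 regulator genes. Shares of all genes were not counted. TCACNCCAC was found in 1 sterol window, that of Hmgcs1, and in 1.24% of all windows. Mvk carried 5 CCAAT matches in the 200 bases shown, and Fasn 3 in 100 bases, of which a pair overlap as CCAATTGG. The printed stretches of Fads2 and Scap hold none. A match is a description of the letters, and these shares have no test. The boxes were common to sterol genes that fell and to some that did not pass the test, since Cyp51 and Idi1 also carry CCAAT.

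Enzymes of sterol synthesis had lower levels with CHIR99021. All 17 had a log2 change below 0, from -0.53 to -0.01, with a median of -0.32, against -0.04 for all tested genes. The test called 7 of 17 lower (41.2%, background 13.3%) and 0 higher. At an unadjusted p under 0.05 the counts were 9 and 0, with no share of all genes counted beside them. The blocked fit called 12 of 17 lower (70.6%, background 24.4%) and 0 higher. For 10 enzymes the groups did not overlap, with CHIR99021 lower, which held for 23.1% of all tested genes. For 15 enzymes CHIR99021 was lower in 3 of 3 replicate numbers, against 37.3% of all genes. Upper-quartile or quantile scaling between libraries left 16 of 17 below 0, the exception being Cyp51.

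**Figure D1:**
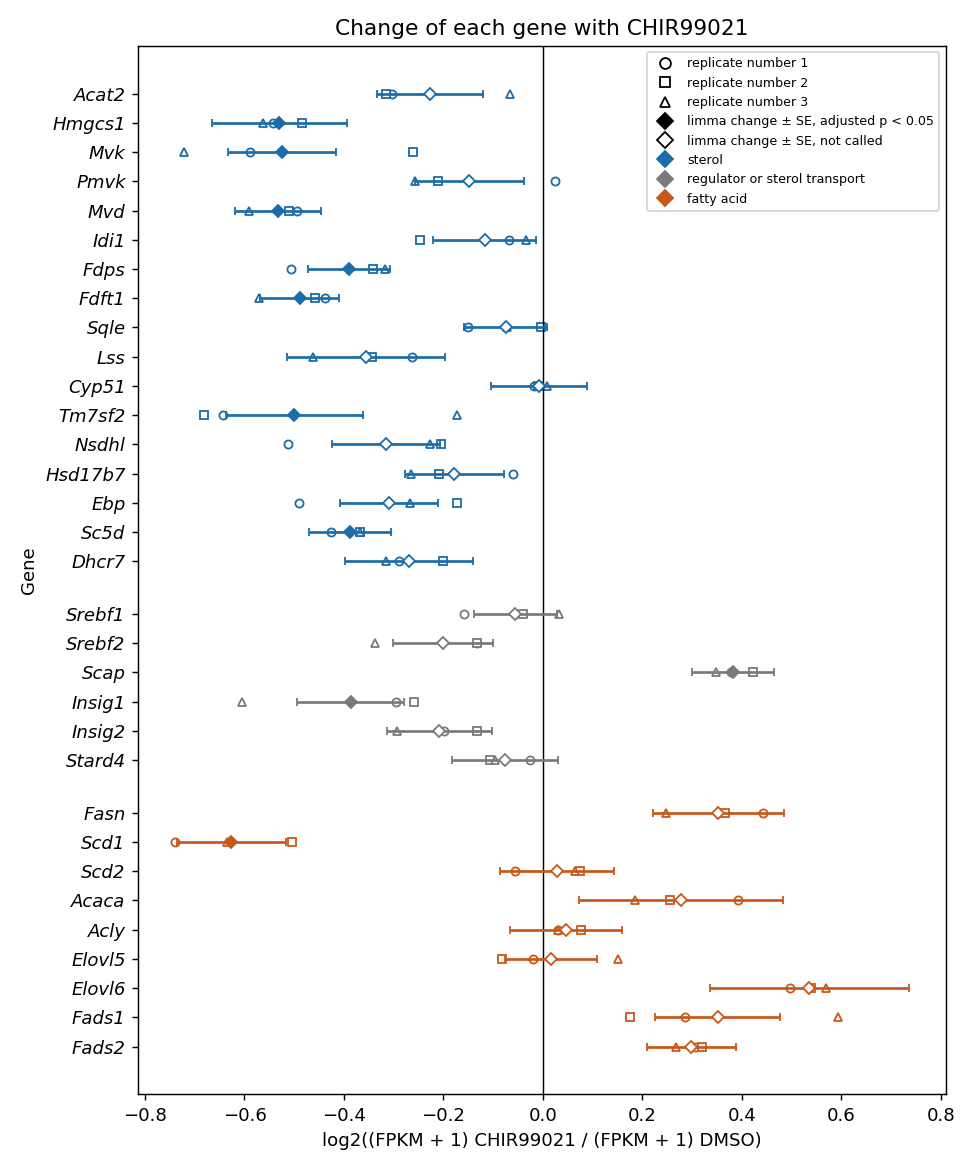
Change of each of the 32 genes with CHIR99021 on the log2(FPKM + 1) scale (x axis), with genes on the y axis grouped as sterol enzymes (blue), regulators and a sterol carrier (grey) and fatty acid enzymes (orange). Open circles, squares and triangles are the CHIR99021 to DMSO ratios within replicate numbers 1, 2 and 3, diamonds with bars are limma's change ± SE, and filled diamonds passed the test. Blue diamonds all lie below 0, and Scd1 is the single orange diamond below 0.

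The first steps make mevalonate and turn it into 5-carbon isoprene units. Acat2, the thiolase that joins a pair of acetyl-CoA molecules, had 36.9, 41.8 and 39.5 FPKM in DMSO and 29.7, 33.4 and 37.7 in CHIR99021. The groups overlapped, and Acat2 was called only with the block (log2 change -0.23 ± 0.11 SE, adjusted p = 0.170, 0.0437 with the block). That call ended when upper-quartile or quantile scaling was joined to the block (0.0995 and 0.128). Hmgcs1, HMG-CoA synthase, had 72.2, 87.7 and 94.6 FPKM in DMSO and 49.3, 62.4 and 63.7 in CHIR99021. Every CHIR99021 library lay below every DMSO library, and replicate 1 was the lowest of both groups. Hmgcs1 fell 1.45-fold (log2 change -0.53 ± 0.14 SE, adjusted p = 0.0300). Mvk, mevalonate kinase, had 20.8, 18.1 and 22.4 FPKM in DMSO and 13.5, 15.0 and 13.2 in CHIR99021, a fall of 1.47-fold (adjusted p = 0.0135). Pmvk, the next kinase, did not pass in either fit, at 32.9 ± 4.39 and 29.4 ± 0.912 FPKM (SD, n = 3 per group, here and below). Mvd, mevalonate diphosphate decarboxylase, had 56.5, 60.0 and 65.6 FPKM in DMSO and 39.8, 41.8 and 43.3 in CHIR99021. The groups lay well apart, and Mvd fell 1.46-fold (log2 change -0.53 ± 0.09 SE, adjusted p = 0.00526). Idi1, the isomerase of the isoprene units, did not pass, at 108 ± 10.6 and 99.5 ± 8.62 FPKM.

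Farnesyl diphosphate and squalene come next. Fdps, farnesyl diphosphate synthase, had the highest mean level of the sterol enzymes, at 168, 153 and 164 FPKM in DMSO and 118, 120 and 132 in CHIR99021. It fell 1.31-fold (log2 change -0.39 ± 0.08 SE, adjusted p = 0.0145). Fdft1, squalene synthase, commits farnesyl diphosphate to sterols. It had 34.4, 33.0 and 35.2 FPKM in DMSO and 25.1, 23.7 and 23.4 in CHIR99021, with little spread within either group. Fdft1 fell 1.42-fold (log2 change -0.49 ± 0.08 SE, adjusted p = 0.00526). In the GENCODE vM21 annotation, 774 of the 3698 exonic bases of Fdft1 overlap Ctsb on the opposite strand, and the sources used here do not say whether the authors' counting used strand. Ctsb itself had 27.0 ± 5.97 and 30.6 ± 5.55 FPKM and did not pass. Of the Fdps exonic bases, 1124 of 1453 are shared with the predicted gene Gm43738 on the same strand.

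None of the genes for the epoxidase and the next steps was called when all libraries were fitted without the block. Sqle, which encodes the epoxidase and is a control point of the pathway, had 62.3, 60.8 and 67.1 FPKM in DMSO and 56.0, 60.7 and 63.8 in CHIR99021, and the groups overlapped (log2 change -0.08 ± 0.08 SE, adjusted p = 0.582). Lss, lanosterol synthase, had 42.5, 61.0 and 56.4 FPKM in DMSO and 35.3, 47.8 and 40.7 in CHIR99021. Replicate 1 was lowest in both groups and CHIR99021 was lower in each number, and Lss was called with the block (log2 change -0.36 ± 0.16 SE, adjusted p = 0.152, 0.00519 with the block). Without the block it was called only when DMSO replicate 1 was left out (adjusted p = 0.0491). Cyp51, lanosterol demethylase, had 78.6, 79.2 and 90.2 FPKM in DMSO and 77.6, 78.6 and 90.7 in CHIR99021. Libraries of the same number were nearly equal for Cyp51 (log2 change -0.01 ± 0.10 SE, or ± 0.05 with the block).

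The last steps reshape the sterol rings and side chain. Sc5d, a sterol desaturase, had 64.8, 62.5 and 68.8 FPKM in DMSO and 48.0, 48.2 and 53.1 in CHIR99021, a fall of 1.31-fold (adjusted p = 0.0145). Tm7sf2, a sterol reductase, had 11.7, 11.4 and 8.49 FPKM in DMSO and 7.15, 6.73 and 7.41 in CHIR99021, a fall of 1.49-fold (adjusted p = 0.0385). DMSO replicate 3 lay close to the CHIR99021 libraries for Tm7sf2, whose confidence limits, at up to 28.8% of its value, were the widest of the 32 genes. The X-linked genes Nsdhl, a sterol dehydrogenase, and Ebp, a sterol isomerase, were called with the block and not without it. Nsdhl had 25.2 ± 3.16 and 20.0 ± 0.977 FPKM (adjusted p = 0.0765, 0.0220 with the block), and Ebp 29.5 ± 2.198 and 23.6 ± 1.94 (0.0619, 0.0204 with the block). Ebp was also called without the block when DMSO replicate 2 was left out (adjusted p = 0.0470). Dhcr7, the final reductase on the way to cholesterol, had 51.7 ± 7.60 and 42.7 ± 5.12 FPKM (adjusted p = 0.179, 0.0110 with the block). Hsd17b7, a ketosteroid reductase, did not pass in either fit, at 12.2 ± 0.985 and 10.7 ± 0.143 FPKM.

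Summed over the 17 enzymes, the level was 891, 930 and 987 FPKM in DMSO and 711, 762 and 811 in CHIR99021, with no overlap between groups. Mvd and Fdft1 were called under every alternative run. Without DMSO replicate 3 or CHIR99021 replicate 2, 3 enzymes were called lower, and without CHIR99021 replicate 1 or 3, 4 were. The fall of Hmgcs1 was not called without DMSO replicate 2 or 3 or without CHIR99021 replicate 1, 2 or 3 (adjusted p = 0.0557 to 0.0994), and that of Tm7sf2 was not without any library other than DMSO replicate 3 (0.0884 to 0.108). Without the limit on level neither Hmgcs1 (0.0629) nor Tm7sf2 (0.0766) was called, and upper-quartile or quantile scaling ended the call of Tm7sf2 (0.0574 and 0.0679). For Mvk, Fdps and Sc5d the call was lost without DMSO replicate 3 (0.0548, 0.0536 and 0.0569), for Mvk without CHIR99021 replicate 3 (0.0638), for Fdps without CHIR99021 replicate 1 or 2 (0.0513 and 0.0528) and for Sc5d without CHIR99021 replicate 2 (0.0530).

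**Figure D2:**
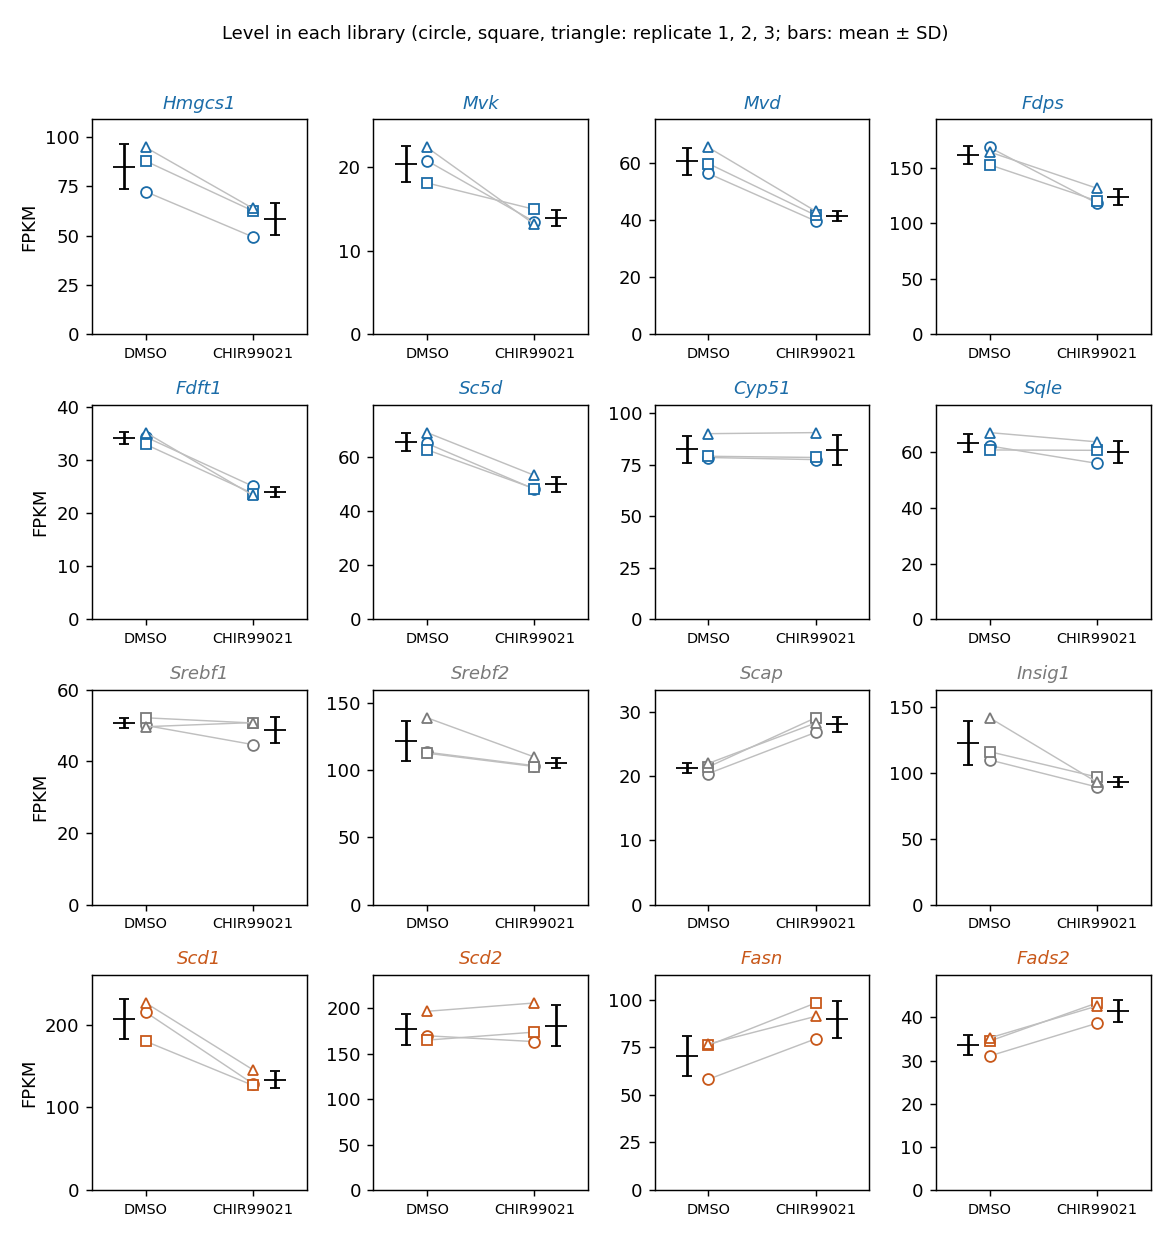
FPKM (y axis, from 0) of 16 of the genes in each DMSO and CHIR99021 library (x axis), with lines joining libraries of the same replicate number and bars for the mean ± SD of 3 libraries. Hmgcs1, Mvk, Mvd, Fdps, Fdft1, Sc5d, Srebf2, Insig1 and Scd1 separate downward, and Scap, Fasn and Fads2 separate upward. The groups of Cyp51, Sqle, Srebf1 and Scd2 overlap.

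Among the regulators, the escort gene rose and one of its anchors fell. Scap had 20.4, 21.4 and 22.0 FPKM in DMSO and 26.8, 29.1 and 28.3 in CHIR99021. All CHIR99021 libraries lay above all DMSO libraries, and Scap rose 1.32-fold (log2 change 0.38 ± 0.08 SE, adjusted p = 0.0156). Insig1, itself a classic SREBP target that holds SCAP in the endoplasmic reticulum, had 110, 116 and 142 FPKM in DMSO and 89.2, 96.7 and 92.8 in CHIR99021. Its groups did not overlap, with DMSO replicate 3 standing highest, and it fell 1.32-fold (log2 change -0.39 ± 0.11 SE, adjusted p = 0.0393). Insig1 was 3.28 to 3.33 times as high as Scap in the CHIR99021 libraries and 5.37 to 6.44 times in the DMSO libraries. With Insig1 lower and Scap higher without overlap, this ratio had to separate the groups and adds no evidence. Insig2, the second anchor, was at a far lower level and did not pass in either fit, at 9.30 ± 0.472 and 7.92 ± 0.555 FPKM.

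The genes for the SREBPs themselves showed smaller differences. Srebf2 had 113, 113 and 139 FPKM in DMSO and 103, 103 and 110 in CHIR99021. The groups did not overlap, though by a small margin, and Srebf2 was called lower only with the block (log2 change -0.20 ± 0.10 SE, adjusted p = 0.197, 0.0404 with the block). That call ended when upper-quartile or quantile scaling was joined to the block (0.0829 and 0.0706). Srebf1 had 50.04, 52.2 and 49.7 FPKM in DMSO and 44.7, 50.7 and 50.9 in CHIR99021, and the groups overlapped (log2 change -0.06 ± 0.08 SE, adjusted p = 0.694). Srebf1 makes 2 main SREBP1 isoforms from separate starts, which a gene FPKM does not separate. Srebf2 was 2.02 to 2.79 times as high as Srebf1 in all 6 libraries, with the ranges of the groups overlapping. Stard4, which carries sterols between membranes, did not pass, at 27.8 ± 2.88 and 26.3 ± 2.16 FPKM.

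Of these 6 genes 1 was called higher (16.7%, background 8.13%) and 1 lower (16.7%, background 13.3%). With the block 1 was called higher (16.7%, background 18.4%) and 2 lower (33.3%, background 24.4%). For a list of 6 genes these counts lie near the shares of all genes. The median log2 change was -0.14. The rise of Scap was not called without CHIR99021 replicate 2 (adjusted p = 0.0579) or 3 (0.0683). The fall of Insig1 was not called without any library other than DMSO replicate 1 (0.0537 to 0.124), nor with upper-quartile scaling (0.0544), without the variance trend (0.0677) or without the limit on level (0.0679).

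Most fatty acid enzymes had higher mean levels with CHIR99021, and none was called higher without the block as deposited. The median log2 change of the 9 genes was 0.28, with 8 above 0 and Scd1 alone below 0. Without DMSO replicate 1 the median was 0.067 with 3 genes below 0, and without CHIR99021 replicate 3 it was 0.22 with 4 below 0. The test called 0 of 9 higher (background 8.13%) and 1 lower (background 13.3%). At an unadjusted p under 0.05 the counts were 4 and 1, again with no share of all genes counted. The blocked fit called 5 of 9 higher (55.6%, background 18.4%) and 1 lower. For 4 genes the groups did not overlap with CHIR99021 higher, which held for 17.0% of all tested genes. In 6 genes CHIR99021 was higher in 3 of 3 replicate numbers, against 29.3% of all genes.

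**Figure D3:**
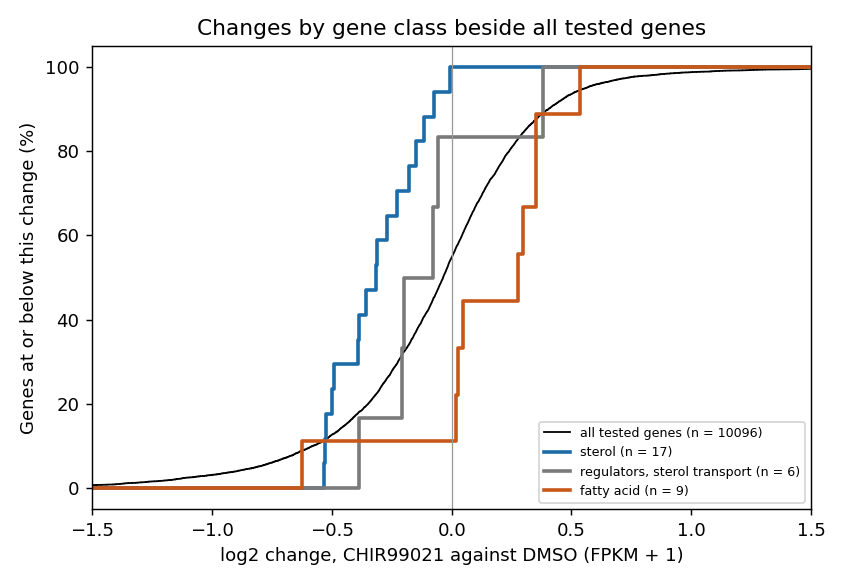
Cumulative share of genes in percent (y axis) by log2 change with CHIR99021 (x axis) for all 10096 tested genes (black, with a few beyond the axis limits), the 17 sterol enzymes (blue), the 6 regulators and sterol carrier (grey) and the 9 fatty acid enzymes (orange). The median change was -0.32 for sterol enzymes, 0.28 for fatty acid enzymes and -0.04 for all genes.

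Citrate is cut to acetyl-CoA by ATP citrate lyase, the product of Acly, which feeds both pathways. Acly had 110, 125 and 134 FPKM in DMSO and 112, 132 and 137 in CHIR99021, with the groups interleaved (log2 change 0.05 ± 0.11 SE, adjusted p = 0.817). Acaca, acetyl-CoA carboxylase, makes malonyl-CoA and is the committed step. It had 10.5, 16.8 and 16.7 FPKM in DMSO and 14.0, 20.2 and 19.1 in CHIR99021. Replicate 1 was the lowest of each group, the groups overlapped, and within each number CHIR99021 was higher (log2 change 0.28 ± 0.20 SE, adjusted p = 0.380, 0.0237 with the block). Fasn, fatty acid synthase, had 58.1, 76.0 and 76.7 FPKM in DMSO and 79.4, 98.2 and 91.2 in CHIR99021. Each CHIR99021 library was above each DMSO library, at 1.28 times the DMSO mean (log2 change 0.35 ± 0.13 SE, adjusted p = 0.0965, 0.00438 with the block).

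Elongases extend the chains that Fasn makes. Elovl6, which elongates palmitate, was the lowest of the 32 genes, at 2.59, 3.99 and 3.89 FPKM in DMSO and 4.07, 6.25 and 6.25 in CHIR99021. The lowest CHIR99021 library was just above the highest DMSO library (log2 change 0.54 ± 0.20 SE, adjusted p = 0.0971, 0.00421 with the block). Elovl5, which elongates polyunsaturated chains, had 42.1 ± 0.674 and 42.7 ± 4.42 FPKM and passed in neither fit. Fads1 and Fads2 are neighbouring genes on chromosome 19 that encode desaturases of polyunsaturated fatty acids. Fads2 had 31.1, 34.5 and 35.3 FPKM in DMSO and 38.7, 43.4 and 42.6 in CHIR99021, with no overlap. Its adjusted p lay at the threshold (log2 change 0.30 ± 0.09 SE, adjusted p = 0.0502, 0.00703 with the block). Fads2 was also called without the block with a pseudocount of 5 (0.0490), a minimum mean of 5 FPKM (0.0423), upper-quartile scaling (0.0223) and quantile scaling (0.0212). Fads1 had 11.2, 13.3 and 9.68 FPKM in DMSO and 13.9, 15.1 and 15.1 in CHIR99021, again without overlap (log2 change 0.35 ± 0.13 SE, adjusted p = 0.0861, 0.0268 with the block). Fads1 was also called without the block with quantile scaling (0.0399) and without DMSO replicate 2 (0.0361).

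Scd1 and Scd2 encode stearoyl-CoA desaturases, which make monounsaturated fatty acids, and lie in one cluster on chromosome 19 (44394450 to 44407709 and 44293676 to 44306862, mm10). They had the highest mean levels of the 32 genes. Scd1 had 215, 180 and 227 FPKM in DMSO and 129, 127 and 146 in CHIR99021, with the groups far apart. It fell 1.55-fold (log2 change -0.63 ± 0.11 SE, adjusted p = 0.00686) and was called under every alternative run. Scd2 had 170, 165 and 197 FPKM in DMSO and 163, 174 and 206 in CHIR99021, and the groups overlapped (log2 change 0.03 ± 0.11 SE, adjusted p = 0.897). Scd1 was 1.09 to 1.27 times as high as Scd2 in DMSO and 0.706 to 0.787 times in CHIR99021, so the order of the pair differed between the groups. Reads of such similar genes can be shared between them, and the sources used here do not say how the authors' counting treated reads with several matches.

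**Figure D4:**
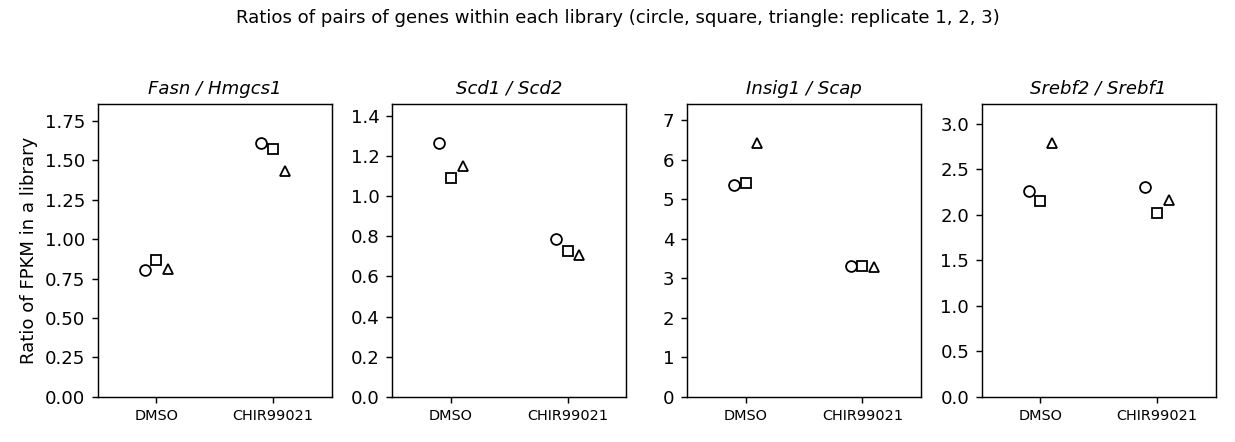
Ratio of FPKM of 2 genes within each library (y axis, from 0) for 4 pairs, with DMSO and CHIR99021 libraries on the x axis and circles, squares and triangles for replicates 1, 2 and 3. Fasn to Hmgcs1, Scd1 to Scd2 and Insig1 to Scap do not overlap between groups, and Srebf2 to Srebf1 does. For Fasn to Hmgcs1 and Insig1 to Scap this follows from the levels of the single genes, which separate in opposite directions.

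A ratio within a library does not depend on a single scaling factor per library, though quantile scaling can change it. The ratio of Fasn to Hmgcs1 was 0.805, 0.866 and 0.811 in DMSO and 1.61, 1.57 and 1.43 in CHIR99021. The fatty acid gene was thus below the sterol gene in every DMSO library and above it in every CHIR99021 library. The pair was picked after its values were seen and has no test. Its separation follows from Fasn being higher and Hmgcs1 lower without overlap. The summed level of the 9 fatty acid enzymes, of which Scd1 and Scd2 were the largest part, was 650, 657 and 743 FPKM in DMSO and 595, 655 and 711 in CHIR99021, and the groups overlapped.

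Several of the genes were lowest in the same replicate number in both groups. The lowest library was replicate 1 in both groups for 7 of 17 sterol enzymes and 5 of 9 fatty acid enzymes, among them Hmgcs1, Lss, Fasn, Acaca and Elovl6. The share of all tested genes with this pattern was not counted. Same-numbered libraries deviated together over all tested genes, so the pattern is not shown to be particular to these enzymes. Fasn, Acaca, Elovl6 and Lss were called with the block and not without it when all libraries were fitted. In DMSO, Srebf2 and Insig1 stood highest in replicate 3. Between the limits that Cufflinks gives for each library, CHIR99021 and DMSO were apart in 3 of 3 replicate numbers for 10 of the 32 genes downward (12.5% of all tested genes) and for 4 upward (9.09%), which were Scap, Fasn, Acaca and Elovl6. These limits reached from 2.28% to 28.8% of a value on either side and cover a single library, not the spread between cultures.

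Other genes around these pathways were counted by list, against the 8.13% of all tested genes called higher and 13.3% called lower. Counts with the block, here and for the lists below, stand against 18.4% higher and 24.4% lower. None of the 10 genes for SREBP processing and sterol sensing, such as the Golgi protease genes Mbtps1 and Mbtps2, was called by limma, with 1 lower at an unadjusted p under 0.05 and 1 lower with the block. Of 10 genes that use isoprene units outside sterol synthesis, 2 rose and 1 fell, or 4 and 2 with the block. Coq2, which attaches the isoprene tail of ubiquinone, rose from 21.8, 20.6 and 18.4 FPKM to 31.3, 30.0 and 30.0 (adjusted p = 0.00518), with the groups far apart. Nus1, a subunit of the enzyme that makes dolichol chains, rose from 21.3, 21.1 and 21.6 FPKM to 26.3, 30.5 and 32.8 (adjusted p = 0.0166). Pggt1b, a subunit of a protein prenyltransferase, fell from 15.4, 13.6 and 12.1 FPKM to 9.59, 8.07 and 8.45 (adjusted p = 0.0127). Of these 10 genes 1 was called without CHIR99021 replicate 3, where Nus1 (0.0733) and Pggt1b (0.0587) were not. The count was 5 without DMSO replicate 2, with a minimum mean of 5 FPKM and with upper-quartile or quantile scaling. Nus1 was also not called without DMSO replicate 3 (0.0530) or CHIR99021 replicate 2 (0.0568).

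Of 8 tested genes of the elongation cycle and other elongases or desaturases, 3 rose and 0 fell, also with the block. Hacd3 and Hacd1, listed in the files under the older symbols Ptplad1 and Ptpla, encode dehydratases of the elongation cycle. Hacd3 rose from 12.9, 13.4 and 15.5 FPKM to 25.9, 30.4 and 32.5 (log2 change 1.03 ± 0.12 SE, adjusted p = 0.00129). Hacd1 rose from 4.26, 3.56 and 2.67 FPKM to 10.4, 8.65 and 6.63 (adjusted p = 0.00749). Both changes were larger than that of any of the 32 genes. Hsd17b12, a reductase of the same cycle, rose from 52.3 ± 1.63 to 63.5 ± 1.91 FPKM (adjusted p = 0.0341). Its call was lost when any 1 of the 6 libraries was left out (0.0656 to 0.105) and without the variance trend (0.0711). Of 11 tested genes for acetyl-CoA, NADPH and fatty acid activation, G6pdx, the first enzyme of the pentose phosphate pathway, rose from 19.7 ± 1.41 to 25.7 ± 1.64 FPKM (adjusted p = 0.0299). Idh1, the cytosolic isocitrate dehydrogenase, fell from 7.73 ± 0.199 to 5.20 ± 0.0396 (0.0139). With the block 3 genes of that list were higher and 2 lower. Without CHIR99021 replicate 3, 0 were called, and 1 was without DMSO replicate 1, 2 or 3 or CHIR99021 replicate 2.

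For sterol efflux and storage, 6 of 10 genes were tested and limma called 0, or 2 higher and 1 lower with the block. Abca1 and Abcg1, the sterol exporter genes driven by the sterol sensor LXR, lay below the limit on level, at means under 1 FPKM in both groups. Of 9 tested genes for lysosomal and intracellular sterol handling, Osbpl2 alone fell, from 7.28, 8.19 and 8.40 FPKM to 5.20, 6.41 and 5.07 (adjusted p = 0.0402), and the call was lost without any library other than CHIR99021 replicate 2 (0.0572 to 0.147) and without the limit on level (0.0803). With the block 2 genes of that list were higher and 2 lower. Among 18 glycerolipid and phospholipid synthesis genes limma called 0, or 3 higher with the block, and among 12 tested fatty acid oxidation genes 0, or 1 lower with the block. At an unadjusted p under 0.05 the counts for these 3 lists without a call were 1 higher and 0 lower for efflux and storage, 1 higher and 0 lower for glycerolipids and 0 higher and 1 lower for oxidation.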

How the data were processed

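Libraries were made from total RNA with the TruSeq Stranded mRNA kit, per the labels' protocols. The tools were Cufflinks 2.2.1, TopHat2 2.1.1 and cutadapt 1.12 with build mm10, per the submitters' processing notes. For the annotation, strand setting and reads with several matches, the sources used here state no setting. The authors deposited FPKM per gene with lower and upper limits, 1 table per library, and every status was OK. The number of fragments is unknown, and summed FPKM was 527290 to 617449 per library.

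Genes whose mean reached 1 FPKM (10096) were tested on log2(FPKM + 1) with limma 3.58.1 in R 4.3.3 (variance trend, two-sided, Benjamini-Hochberg), after a check on simulated data. Python 3.11.15, pandas 2.3.3 and matplotlib 3.10.9 were used for tables and figures. Folds are ratios of mean FPKM, and fold changes on the log2(FPKM + 1) scale understate low genes. Coordinates are the deposited mm10 gene spans, counted from 1.

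The 32 genes and the lists around them were chosen with earlier results of these data known. All 32 were named, and of each other list up to 4 genes that passed. Of the list genes, 6 pathway genes and 2 markers were found under older symbols in RefSeq's table. Same-numbered libraries correlated in their deviations from group means at 0.535, 0.490 and 0.517, and other pairs at -0.352 to -0.140. Deviations within a group sum to 0, so positive same-number values bring negative ones elsewhere, which add no evidence. The titles' numbers were taken as pairs from the same-number correlations and not from a label. Alternatives varied the pseudocount, limit on level, scaling, variance trend, block and each library, and 2 fits that joined block and scaling were added after the data were seen. Where nothing names separate mice, p-values measure the spread between these cultures.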

Additional observations from a re-analysis of the deposited data

How the results depend on the processing

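With the replicate block 4321 of all tested genes were called, against 2164 without it, and 4500 or 4460 when the block was joined with upper-quartile or quantile scaling. Leaving out 1 library gave 1061 to 1983. Of all calls 37.9% were higher as deposited, 48.7% with upper-quartile and 51.2% with quantile scaling, and the median change of all genes moved from -0.04 to 0.01 and 0.03. Sterol enzymes called lower numbered 7, or 12 with the block, 11 and 11 with the block and either scaling (Acat2 being lost), and 3 to 7 with 1 library left out. Fatty acid enzymes called higher numbered 0, or 5 with the block and with the block and either scaling. They numbered 1 with a pseudocount of 5, with a minimum mean of 5 FPKM and with upper-quartile scaling, 2 with quantile scaling, and 0 to 1 with 1 library left out. Regulators called lower numbered 1, 2 with the block, or 1 with the block and either scaling (Srebf2 being lost). They numbered 0 without the limit on level, with upper-quartile scaling and without the variance trend, and 0 to 1 with 1 library left out. Regulators called higher numbered 1, or 0 to 1 with 1 library left out. The cause of these shifts was not tested.

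Changes of sign were limited to genes near 0 that were not called. Cyp51 was 0.048 with upper-quartile and 0.033 with quantile scaling, the same with the block, and Srebf1 was 0.015 with quantile scaling, also with the block. With 1 library left out, Cyp51 ran from -0.078 to 0.056, Srebf1 from -0.087 to 0.0046, Scd2 from -0.068 to 0.11, Acly from -0.035 to 0.14 and Elovl5 from -0.063 to 0.076. The block ended no call among the 32 genes. The number of fragments per gene is unknown, and the Cufflinks limits of a single library reached 28.8% of the value for Tm7sf2, 21.5% for Elovl6 and 21.0% for Insig2.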
